A study of Mus musculus with 6 samples.

Results

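To examine the cytochrome P450 enzymes in the epididymis lacking occludin, the P450 genes were taken from RNA-seq of the whole epididymis, with 3 libraries from WT and 3 from Ocln-KO mice. Members were all listed genes whose symbol reads Cyp, a family number, a subfamily letter and a gene number, which gave 95 of the 57127 genes listed. All mice were of the C57BL/6 strain and adult. The KO mice (Ocln-/-) lack the tight junction protein occludin in the whole body and came from heterozygous pairings, and neither genotype was treated. The whole organ was used, so each library mixes all regions and cell types of the epididymis, and fewer cells of a type cannot be told apart from less RNA per cell. RNA came from 3 pairs of mice, and the methods also speak of pooled RNA, so n counts libraries. Where 1 library is not 1 mouse, the p-values measure only the spread between these libraries, which may be technical.

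Total counts ran from 30646424 to 38870780 per library, and 3 counts, taken here as the lowest level that can be read, were 0.0802 to 0.0942 CPM (counts scaled to library size with TMM factors). Ocln itself had 85.9, 78.8 and 91.8 CPM in WT against 15.1, 15.3 and 14.9 CPM in Ocln-KO, lower in each KO library as the labels require. The tissue label gives epididymis, while the extraction label names another organ. Crisp1, an epididymal secretory gene, had 12488 to 16769 CPM in WT. On the first principal component, which held 47.2% of the variance, WT libraries lay between -52.8 and -37.0, and Ocln-KO replicate 3 at 86.3 stood apart from the other two KO libraries at 17.7 and 29.1. P450 genes whose call changed without this library are given with and without it.

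P450 enzymes are haem proteins that insert an oxygen atom into lipids, steroids, vitamins and foreign compounds. Those of the endoplasmic reticulum take their electrons from P450 oxidoreductase and cytochrome b5, and those of mitochondria from ferredoxin. Families are numbered by protein likeness. Family 1 oxidises aromatic compounds and oestrogens, family 2 holds many drug and fatty acid oxidases, family 4 hydroxylates the far end of fatty acids, and the families with higher numbers are mostly devoted to 1 class of sterol, steroid, retinoid or vitamin. In the male tract they bear on androgen and oestrogen supply, retinoic acid and the oxidised fatty acids made from arachidonic acid.

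Of the 95 P450 genes in 16 families, 28 had no count in any library, 31 had counts too low to be tested (at most 18 in a library) and 36 in 10 families were tested. Lower P450 levels outnumbered higher ones in Ocln-KO. Of the 36 tested genes, 22 had a negative log2 fold change (Ocln-KO minus WT) and 14 a positive one, with a median of -0.21 and a range from -2.98 to 2.40. Over all 19691 genes tested, 49.1% were on the negative side and the median was 0.01. With edgeR's quasi-likelihood test and Benjamini-Hochberg adjustment over all genes tested, 2 P450 genes fell at an adjusted p under 0.05, Cyp17a1 and Cyp2u1, which is 5.56% of those tested beside 5.04% of all genes. Both also passed the fold threshold of the study's methods, a fold change under 0.5, against a background of 1.7%. With 2 genes called, these shares rest on few genes.

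No P450 gene rose by edgeR's quasi-likelihood test (0 of 36), beside 3.91% of all genes and 1.49% with a fold change over 2. At an unadjusted p under 0.05, 10 of the 36 P450 genes were lower and 5 higher, beside 2989 and 2734 of the 19691 genes tested. DESeq2 called 5 P450 genes lower (13.9%, beside 8.68% of all genes) and 2 higher (5.56%, beside 8.15%), the higher ones being Cyp4f17 and Cyp4f39. In limma-voom 3 were lower (8.33%, beside 5.33%) and 0 higher (beside 3.7%). In 13 of the 36 tested P450 genes every Ocln-KO library was below every WT library, beside 19.4% of all genes tested. In 5 of the 36 every KO library was above, beside 16.9%. The calls depended on single libraries, over all genes as among P450 genes. Without WT replicate 1 or WT replicate 3 the count of lower P450 genes was 0, while that over all genes went from 992 to 19 and 40. It was 1 without WT replicate 2 (145 over all genes) or Ocln-KO replicate 2 (342). It was 6 when Ocln-KO replicate 3 was left out (944).

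**Figure D1:**
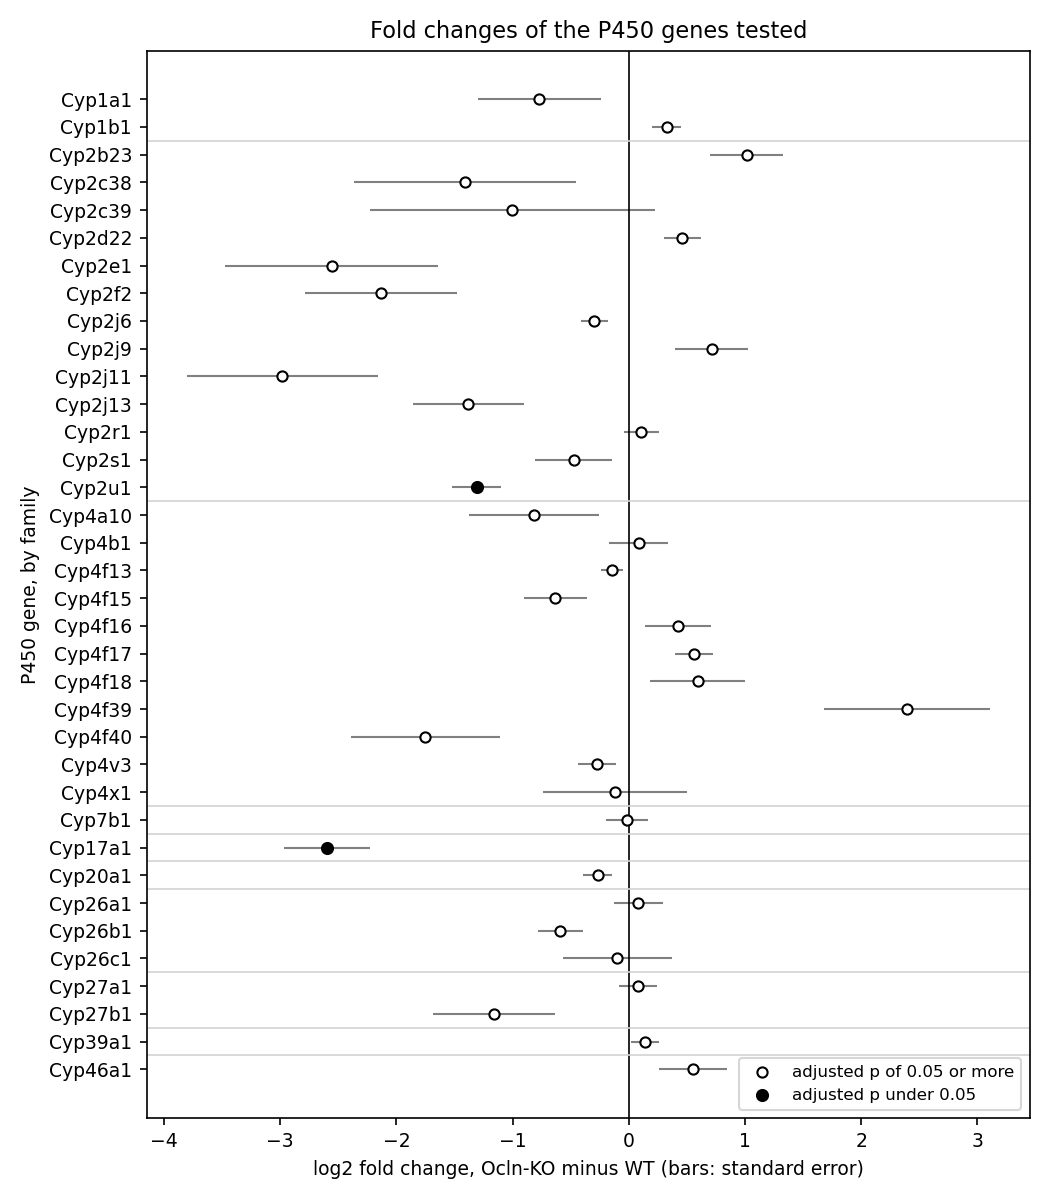
Log2 fold change (Ocln-KO minus WT, horizontal axis) of each tested P450 gene, ordered by family and divided by grey lines, with its standard error as a bar. Filled points mark the 2 genes with an edgeR adjusted p under 0.05, and the points run from -2.98 for Cyp2j11 to 2.40 for Cyp4f39.

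The summed level of all 95 P450 genes was 896, 845 and 847 CPM in WT against 594, 652 and 623 CPM in Ocln-KO, with no overlap. Much of this sum came from a few genes. Cyp17a1, Cyp1b1 and Cyp2j13 held 62.0% to 65.0% of P450 counts in WT and 53.0% to 58.5% in Ocln-KO. Cyp17a1 made up 21.1%, 18.8% and 26.8% of P450 counts in the WT libraries and 7.01%, 5.99% and 2.29% in the KO libraries. With Cyp17a1 left out, the sums were 707, 687 and 620 CPM in WT against 552, 613 and 609 CPM in Ocln-KO, so the genotypes still did not overlap but lay close. These sums still held Cyp2j13, at 158, 161 and 134 CPM in WT against 67.5, 88.6 and 17.5 CPM in Ocln-KO. They therefore do not show a lower level across the remaining P450 genes. Cyp1b1 made up 24.9%, 24.2% and 22.5% of P450 counts in WT, above Cyp17a1 in replicates 1 and 2, and 37.5%, 38.9% and 47.9% in Ocln-KO, above it in all 3.

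**Figure D2:**
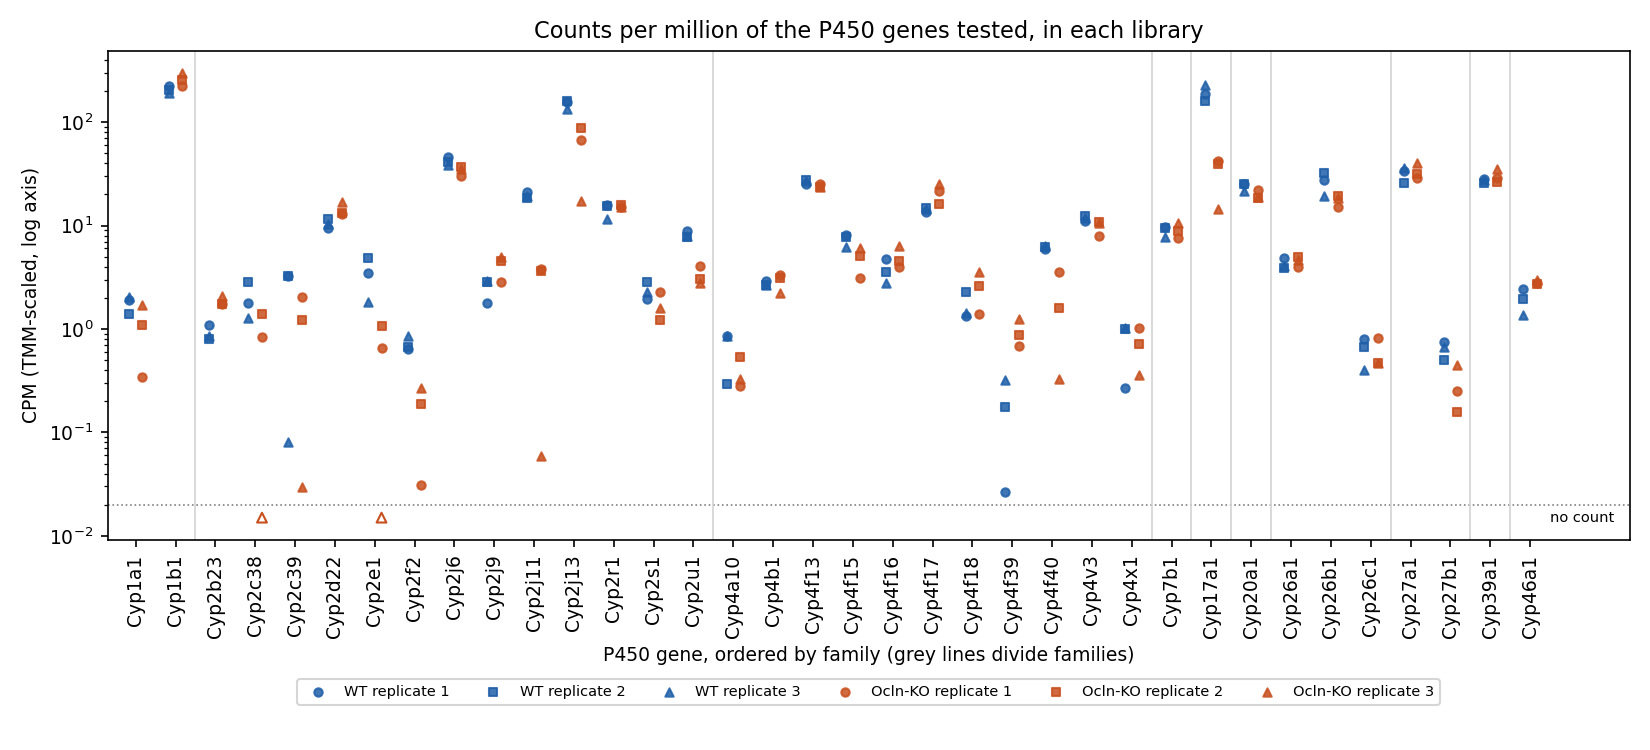
CPM of the 36 tested P450 genes in each library on a log axis, by family, with WT in blue and Ocln-KO in orange and replicates 1, 2 and 3 as circles, squares and triangles. Open triangles under the dotted line mark libraries with no count, Ocln-KO replicate 3 for Cyp2c38 and Cyp2e1, and Cyp17a1 and Cyp2j11 show the KO points well below the WT points.

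Levels of different genes were compared per kilobase of exon (CPM per kb, exon lengths of GENCODE vM21). In WT, Cyp17a1 was highest at 69.1 ± 12.3 CPM per kb (SD, n = 3), followed by Cyp1b1 at 35.2 ± 2.77 and Cyp2j13 at 32.1 ± 3.15. The Cyp17a1 libraries all lay above those of Cyp1b1, while Cyp1b1 and Cyp2j13 overlapped. After these came Cyp27a1 at 14.6 ± 2.43, Cyp2j6 at 11.6 ± 1.04, Cyp20a1 at 10.5 ± 0.897, Cyp2j11 at 10.2 ± 0.732 and Cyp39a1 at 8.92 ± 0.378 CPM per kb. From Cyp27a1 to Cyp2j11 each gene's WT libraries overlapped those of the next, while all Cyp39a1 libraries lay below those of Cyp2j11. In Ocln-KO the order was Cyp1b1 at 44.2 ± 6.55, Cyp27a1 at 15.5 ± 2.69, Cyp2j13 at 12.3 ± 7.79 and Cyp17a1 at 11.4 ± 5.45 CPM per kb. The KO libraries of Cyp27a1, Cyp2j13 and Cyp17a1 overlapped, so the order among these was not resolved, and all lay below Cyp1b1. Cyp2j11 was at 1.30 ± 1.10 CPM per kb in Ocln-KO.

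Cyp17a1 encodes the hydroxylase and lyase that turns progestogens into androgen precursors. It lies on chromosome 19 (GRCm38.p6, chr19:46667165-46673000). Cyp17a1 had 189, 159 and 227 CPM in WT against 41.6, 39.0 and 14.3 CPM in Ocln-KO. The lowest WT library was far above the highest KO library, and within Ocln-KO replicate 3 was lowest. The fold change was -2.60 on the log2 scale (SE 0.37, edgeR adjusted p = 0.0144), a level 6.05 times as high in WT. Without Ocln-KO replicate 3 the log2 fold change was -2.25 with an edgeR adjusted p of 0.000419, so the lower level did not rest on that library. The call was lost without WT replicate 1 (edgeR adjusted p = 0.0778) and without WT replicate 3 (0.0727), with log2 fold changes of -2.61 and -2.46. With the replicate number fitted as a block it was lost as well (edgeR adjusted p = 0.0731).

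The other P450s of steroid hormone synthesis were scarcely counted. Cyp11a1, which starts the pathway by cutting the cholesterol side chain in mitochondria, had 9, 2 and 9 counts in WT and 9, 8 and 4 in Ocln-KO. Cyp19a1, the aromatase that makes oestrogens, had 1, 15 and 5 counts in WT and 0, 7 and 0 in Ocln-KO. Cyp21a1, needed for corticosteroids, had 1 count over all libraries, and Cyp11b1 and Cyp11b2, which complete those hormones in the adrenal cortex, had none. None of these could be tested. Hsd3b1, a Leydig cell enzyme of the same pathway, had no count, and the summed level of the Leydig cell markers was 2.94 to 3.22 CPM in WT against 1.63 to 3.62 CPM in Ocln-KO, with the defining marker Insl3 at or below 0.282 CPM in every library.

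Cyp2u1, an enzyme that hydroxylates arachidonic acid and other long fatty acids, was the second P450 gene that fell. It lies on chromosome 3 (chr3:131290491-131304157). Cyp2u1 had 8.77, 7.74 and 7.89 CPM in WT against 4.08, 3.01 and 2.75 CPM in Ocln-KO. The 3 KO libraries lay close together and all below WT. The log2 fold change was -1.31 (SE 0.21, edgeR adjusted p = 0.0201), a level 2.48 times as high in WT. The call was lost without any 1 of the WT libraries or without Ocln-KO replicate 2. With the replicate number fitted as a block it was lost as well (edgeR adjusted p = 0.0738). Over all the alternatives the highest adjusted p was 0.0976 (edgeR, without WT replicate 1), and the log2 fold change lay between -1.49 and -1.20. An annotated gene on the opposite strand, 4930534D22Rik, overlaps 10.5% of the Cyp2u1 exon bases, and as the strand setting of the counting is not given in the sources used here, reads of the pair cannot be told apart there.

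**Figure D3:**
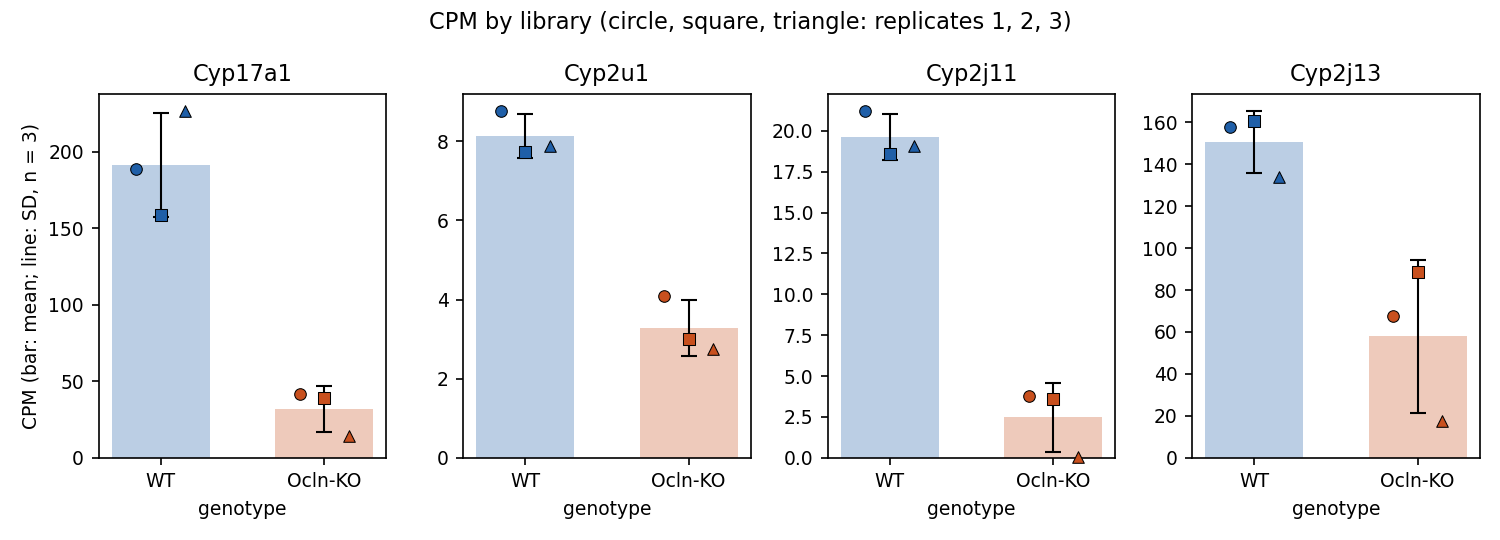
CPM of Cyp17a1, Cyp2u1, Cyp2j11 and Cyp2j13 in each library (circle, square and triangle for replicates 1, 2 and 3), with the genotype mean as a bar from 0 and the SD as a line (n = 3). In Ocln-KO replicate 3 (triangle) Cyp2j11 was at 0.0592 CPM and Cyp2j13 at 17.5 CPM, while the Cyp2u1 values of the 3 KO libraries lay between 2.75 and 4.08 CPM.

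The Cyp2j subfamily includes enzymes that form epoxides of arachidonic acid, and its genes lie side by side on chromosome 4. Of the 8 listed Cyp2j genes 4 were tested, and they did not share a direction. None of the 4 was called by edgeR with all libraries, and differences among them were not tested. The start regions of the tested ones are shown, from 250 bases before to 50 bases after the annotated start. They come from RefSeq (GRCm38.p6), lie on the minus strand and read 5′ to 3′. Capitals mark matches, on either strand, to TATAAA (the TATA box), AGGTCA (a nuclear receptor half-site), AGAACA (a half-site of the androgen and glucocorticoid receptors) or GCGTG (the core bound by the aryl hydrocarbon receptor). The windows are chr4:96077491-96077790 for Cyp2j13, chr4:96348631-96348930 for Cyp2j11, chr4:96553602-96553901 for Cyp2j6 and chr4:96591436-96591735 for Cyp2j9. Cyp2j13 has 2 entries, of which the first is shown, and the Cyp2j6 and Cyp2j9 windows lie inside the spans of their genes.
Cyp2j13: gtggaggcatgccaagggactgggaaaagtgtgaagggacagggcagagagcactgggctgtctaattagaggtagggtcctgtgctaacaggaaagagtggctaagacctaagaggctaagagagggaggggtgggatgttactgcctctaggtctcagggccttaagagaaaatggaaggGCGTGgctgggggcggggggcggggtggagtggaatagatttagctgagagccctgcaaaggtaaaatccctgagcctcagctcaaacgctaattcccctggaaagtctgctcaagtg
Cyp2j11: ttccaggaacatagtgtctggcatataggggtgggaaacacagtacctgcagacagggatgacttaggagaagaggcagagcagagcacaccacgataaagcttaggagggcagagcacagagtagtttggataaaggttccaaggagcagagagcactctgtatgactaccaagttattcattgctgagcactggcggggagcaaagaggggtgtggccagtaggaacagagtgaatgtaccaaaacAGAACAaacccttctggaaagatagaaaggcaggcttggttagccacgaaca
Cyp2j6: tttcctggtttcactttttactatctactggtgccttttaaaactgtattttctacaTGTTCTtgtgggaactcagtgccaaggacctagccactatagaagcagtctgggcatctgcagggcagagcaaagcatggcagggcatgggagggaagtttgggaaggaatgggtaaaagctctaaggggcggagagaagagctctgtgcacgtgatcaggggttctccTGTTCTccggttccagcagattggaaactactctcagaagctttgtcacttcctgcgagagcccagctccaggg
Cyp2j9: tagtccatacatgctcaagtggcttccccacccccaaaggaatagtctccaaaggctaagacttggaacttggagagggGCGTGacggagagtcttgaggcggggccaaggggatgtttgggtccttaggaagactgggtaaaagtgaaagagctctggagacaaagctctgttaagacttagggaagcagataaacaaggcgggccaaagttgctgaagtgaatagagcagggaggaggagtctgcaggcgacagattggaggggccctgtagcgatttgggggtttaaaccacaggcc

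The Cyp2j13 and Cyp2j9 windows each hold 1 GCGTG, the Cyp2j11 window 1 AGAACA and the Cyp2j6 window 2, and no match overlaps another. None of the 4 windows holds TATAAA or AGGTCA, which says only that these letters are not in these windows. Among all 32851 promoter windows of the table, 32.4% hold GCGTG, 19.0% AGAACA, 16.3% AGGTCA and 13.6% TATAAA. Of the 36 tested P450 genes 28 have an entry, and 10, 6, 3 and 5 of these hold the same motifs in that order. GC content was 55% for Cyp2j13, 49.3% for Cyp2j11, 50.3% for Cyp2j6 and 53.0% for Cyp2j9.

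Cyp2j11 (chr4:96294508-96348693) had the lowest fold change of all tested P450 genes. It had 21.2, 18.6 and 19.1 CPM in WT against 3.80, 3.61 and 0.0592 CPM in Ocln-KO. The genotypes were far apart, and Ocln-KO replicate 3 held 2 counts beside 122 and 115 in the other two. With a log2 fold change of -2.98 (SE 0.82) Cyp2j11 did not pass the test (edgeR adjusted p = 0.0615), and its KO libraries differed widely among themselves. Without Ocln-KO replicate 3 it passed, at a log2 fold change of -2.41 and an edgeR adjusted p of 0.000368. It was also called by limma-voom with all libraries, at an adjusted p of 0.0426.

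Cyp2j13 (chr4:96042660-96077566), the most abundant gene of the cluster per kb in WT, had 158, 161 and 134 CPM in WT against 67.5, 88.6 and 17.5 CPM in Ocln-KO. Every KO library was below WT, and replicate 3 was again lowest. The log2 fold change was -1.38 (SE 0.48, edgeR adjusted p = 0.107), and without Ocln-KO replicate 3 it was -0.95 with an edgeR adjusted p of 0.0083. Cyp2j6 (chr4:96516138-96564305) differed least, from 45.8, 41.1 and 38.4 CPM in WT to 30.0, 37.2 and 34.9 CPM in Ocln-KO, a log2 fold change of -0.30 (SE 0.11, edgeR adjusted p = 0.137). Its replicate 3 was not the lowest. Cyp2j9 (chr4:96568424-96592523), next to it, was on the positive side, at 1.76, 2.84 and 2.91 CPM in the WT libraries against 2.84, 4.52 and 4.97 CPM in Ocln-KO, with a log2 fold change of 0.71 (SE 0.32, edgeR adjusted p = 0.18). Its genotypes touched. Of the untested Cyp2j genes, Cyp2j7 had 4, 9 and 15 counts in WT and 1, 0 and 0 in Ocln-KO, Cyp2j12 and Cyp2j8 at most 11 in a library, and Cyp2j5 none. The tested Cyp2j transcripts share no stretch of 100 bases with each other or with any other annotated transcript.

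**Figure D4:**
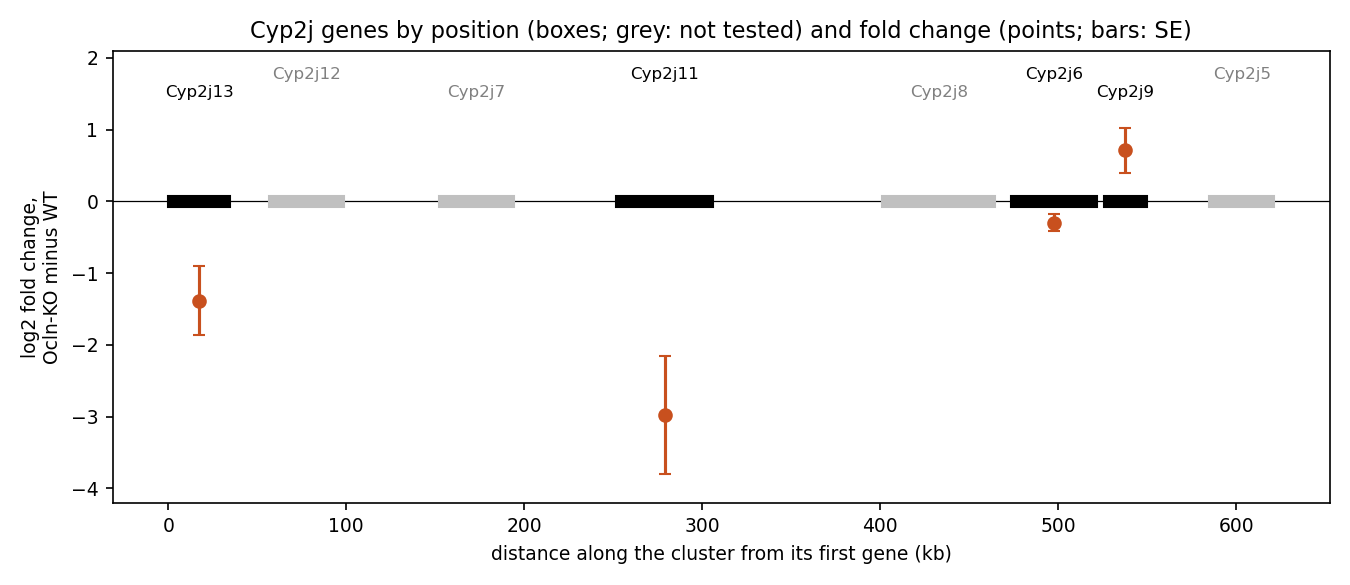
The 8 listed Cyp2j genes as boxes along the cluster (distance in kb from its first gene, horizontal axis; grey boxes were not tested), with the log2 fold change of the 4 tested genes as points and the standard error as bars. Cyp2j13 and Cyp2j11 lie at -1.38 and -2.98, while Cyp2j6 and Cyp2j9 lie at -0.30 and 0.71.

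Among the families with more than 2 tested genes (families 2, 4 and 26), family 2 had the lowest median log2 fold change. Of its 50 listed genes 19 had no count and 13 were tested, 9 of them with a negative log2 fold change. The median of the 13 was -1.0, which is the value of Cyp2c39 and smaller than its SE of 1.23. Of the 13, 1 was called lower, Cyp2u1, beside 5.04% of all genes tested. Cyp2e1, which oxidises ethanol and acetone, had 3.48, 4.86 and 1.80 CPM in WT against 0.655, 1.07 and 0 CPM in Ocln-KO. The genotypes did not overlap, and the log2 fold change was -2.56 (SE 0.92, edgeR adjusted p = 0.115). Without Ocln-KO replicate 3 it was -1.97, with an edgeR adjusted p of 0.0422. Cyp2f2, known from the club cells of the airway, had 0.642, 0.674 and 0.862 CPM in WT against 0.0312, 0.188 and 0.266 CPM in Ocln-KO, the lowest of these being 1 count. It had a log2 fold change of -2.13 (SE 0.65, edgeR adjusted p = 0.0794), and DESeq2 called it at an adjusted p of 0.049. Another annotated gene on the opposite strand, Gm15883, overlaps 13.5% of its exon bases.

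The Cyp2c genes were uneven between libraries of 1 genotype. Cyp2c38 had 1.76, 2.87 and 1.27 CPM in WT against 0.842, 1.38 and 0 CPM in Ocln-KO (log2 fold change -1.41, SE 0.96, edgeR adjusted p = 0.372). Cyp2c39 had 3.26 and 3.22 CPM in WT replicates 1 and 2 and 0.0808 CPM in WT replicate 3, and 2.03, 1.22 and 0.0296 CPM in Ocln-KO, so in each genotype replicate 3 was close to no count. A log2 fold change of -1.0 (SE 1.23, edgeR adjusted p = 0.634) was smaller than its error. On the higher side, Cyp2b23, a member of the drug-oxidising Cyp2b subfamily, had 1.10, 0.791 and 0.862 CPM in WT against 1.75, 1.76 and 2.07 CPM in Ocln-KO. These did not overlap, with a log2 fold change of 1.02 (SE 0.31, edgeR adjusted p = 0.0807). The tested genes of family 2 not given here, Cyp2d22, Cyp2r1 and Cyp2s1, ran from -0.47 to 0.46.

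In family 4, 17 genes were listed and 11 tested, 6 with a negative and 5 with a positive log2 fold change and a median of -0.12. None was called by edgeR. Genes of the Cyp4f subfamily, which hydroxylate the ends of fatty acids, leukotrienes and related lipids, lie mostly side by side on chromosome 17 and spread in log2 fold change from 2.40, the highest of the 36 tested P450 genes, to -1.75. Cyp4f39 had 0.0267, 0.176 and 0.323 CPM in WT against 0.686, 0.879 and 1.24 CPM in Ocln-KO. The lowest WT value is 1 count. The log2 fold change was 2.40 (SE 0.71, edgeR adjusted p = 0.0735), and DESeq2 called it at an adjusted p of 0.0229.

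Cyp4f40 had 5.96, 6.15 and 6.30 CPM in WT against 3.55, 1.60 and 0.326 CPM in Ocln-KO. WT libraries were nearly equal, while the KO libraries spread widely, with replicate 3 lowest. Its log2 fold change was -1.75 (SE 0.64, edgeR adjusted p = 0.122), and it was called by DESeq2 at an adjusted p of 0.0222 and by edgeR without Ocln-KO replicate 1 at 0.0401. With replicate 3 left out instead, the log2 fold change was -1.25, with an edgeR adjusted p just under the threshold. Cyp4f17 had 13.7, 14.6 and 14.5 CPM in WT against 21.6, 16.3 and 25.1 CPM in Ocln-KO, with every KO library higher. Its log2 fold change was 0.56 (SE 0.17, edgeR adjusted p = 0.0734), and DESeq2 called it at an adjusted p of 0.0251. Cyp4f13 was nearly level at 25.4, 27.8 and 26.9 CPM in WT against 25.4, 23.6 and 23.6 CPM in Ocln-KO (log2 fold change -0.14, SE 0.09, edgeR adjusted p = 0.355). The other tested genes of family 4, Cyp4a10, Cyp4b1, Cyp4f15, Cyp4f16, Cyp4f18, Cyp4v3 and Cyp4x1, ran from -0.82 to 0.59, and Cyp4a10 shares 12.7% of its 100-base stretches with Cyp4a31 and Cyp4a32, so its counts are uncertain.

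Cyp1b1, which oxidises oestrogens and polycyclic aromatic compounds, had 223, 204 and 190 CPM in WT against 223, 253 and 299 CPM in Ocln-KO. The lowest KO library lay within the WT values. The log2 fold change of 0.33 (SE 0.12) did not pass the test (edgeR adjusted p = 0.131). Cyp1a1, the other tested gene of family 1 and a classical target of the aryl hydrocarbon receptor, had a log2 fold change of -0.77 (SE 0.53) at 0.343 to 2.02 CPM, and Cyp1a2 had at most 4 counts in a library.

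The P450s that act on retinoic acid, sterols and vitamin D were mostly near level. Cyp26b1, which breaks down retinoic acid and thereby limits its signal, had 27.9, 32.5 and 19.5 CPM in WT against 15.1, 19.4 and 18.6 CPM in Ocln-KO. The lowest WT and the highest KO library almost met. Its log2 fold change was -0.59 (SE 0.20, edgeR adjusted p = 0.0963), and DESeq2 called it at an adjusted p of 0.0443. The other two enzymes of family 26, Cyp26a1 and Cyp26c1, had log2 fold changes of 0.08 and -0.10.

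Cyp27a1, the mitochondrial enzyme that hydroxylates the sterol side chain, had 33.5, 25.9 and 36.1 CPM in WT against 29.0, 31.7 and 40.2 CPM in Ocln-KO (log2 fold change 0.08, SE 0.16, edgeR adjusted p = 0.792). Its groups overlapped in part, and its sign turned when 1 of the libraries was left out, to -0.05 without WT replicate 2 and -0.07 without Ocln-KO replicate 3. Cyp39a1, an oxysterol hydroxylase, had 28.1, 25.9 and 27.6 CPM in WT against 28.6, 26.5 and 34.9 CPM in Ocln-KO (log2 fold change 0.14, SE 0.12, edgeR adjusted p = 0.49). Cyp7b1, which also acts on oxysterols, had a log2 fold change of -0.02, and Cyp46a1, the cholesterol hydroxylase best known from the brain, one of 0.55 (SE 0.29) with every KO library above WT. Cyp7a1, the rate-limiting enzyme of bile acid synthesis in the liver, had 1 count over all libraries.

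Cyp27b1, which activates vitamin D, had 0.748, 0.498 and 0.673 CPM in WT against 0.249, 0.157 and 0.444 CPM in Ocln-KO. The genotypes did not overlap, but with 5 to 28 counts per library the log2 fold change of -1.16 (SE 0.52) did not pass the test (edgeR adjusted p = 0.187). Cyp24a1, which inactivates vitamin D, had no count. Cyp20a1, an orphan P450 whose substrate is not settled, had 25.2, 25.0 and 21.6 CPM in WT against 22.2, 18.5 and 18.9 CPM in Ocln-KO (log2 fold change -0.27, SE 0.12, edgeR adjusted p = 0.188).

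The 59 untested P450 genes included typical liver enzymes. All 7 listed genes of family 3, the main drug oxidases of liver and gut, were untested, and Cyp3a11 had no count. Of the 15 listed Cyp2c genes 9 had none. Cyp2a5 had no count in the WT libraries and 9, 1 and 6 in Ocln-KO. Such a 0 does not show absence, since reads that fit several near-identical genes may have been left out of the deposited counts, and how they were treated is not given in the sources used here. Among the 36 tested genes, 21 share no 100-base stretch with a transcript of another gene, among them Cyp17a1, Cyp1b1 and the 4 Cyp2j genes.

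P450s that carry other names were examined beside the members, and none of 5 tested was called. Cyp51, which removes a methyl group from lanosterol in cholesterol synthesis, had 131, 126 and 127 CPM in WT against 125, 142 and 87.2 CPM in Ocln-KO (log2 fold change -0.12). Cyp4a12a, an androgen-dependent fatty acid hydroxylase of the kidney, had 32.3, 42.2 and 39.0 CPM in WT against 34.2, 35.8 and 2.19 CPM in Ocln-KO. Of the KO libraries only replicate 3 was outside the WT range, and the log2 fold change of -0.65 (edgeR adjusted p = 0.605) was -0.11 without it. Cyp4a12b was at 0.21, the thromboxane synthase gene Tbxas1 at 0.52 and the prostacyclin synthase gene Ptgis at 0.12 on the log2 scale.

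Of the electron donors and haem supply genes 14 were tested, 9 with a negative log2 fold change, and 1 fell and 1 rose. For this list and those that follow, the shares over all genes tested were 5.04% called lower and 3.91% called higher. The lists are short, so their counts rest on few genes. Cyb5a, the cytochrome b5 that assists the lyase step of Cyp17a1, had 164, 160 and 191 CPM in WT against 137, 119 and 105 CPM in Ocln-KO, a log2 fold change of -0.51 (SE 0.12, edgeR adjusted p = 0.0436). Cyb5r1, a cytochrome b5 reductase gene, rose from 26.0, 27.8 and 24.6 CPM in WT to 44.8, 41.8 and 38.9 CPM in Ocln-KO (log2 fold change 0.68, SE 0.10, edgeR adjusted p = 0.0146). Por, the oxidoreductase on which P450s of the endoplasmic reticulum depend, was at 81.1 to 89.8 CPM in WT against 68.3 to 78.3 CPM in Ocln-KO and was not called.

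In the steroid and oxysterol list 12 genes were tested, 9 with a negative log2 fold change, and 2 fell. Srd5a1, the reductase that turns testosterone into dihydrotestosterone, had 39.3, 25.6 and 46.3 CPM in WT against 15.9, 15.6 and 6.93 CPM in Ocln-KO (log2 fold change -1.54, SE 0.33, edgeR adjusted p = 0.0355). Hsd3b7, which acts on hydroxylated sterols on the way to bile acids, had 89.8, 83.6 and 115 CPM in WT against 64.5, 54.5 and 38.2 CPM in Ocln-KO (log2 fold change -0.88, SE 0.20, edgeR adjusted p = 0.0396). For both genes every KO library was below WT and replicate 3 was the lowest, as for Cyp17a1.

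In the retinoid list 12 genes were tested, 9 with a positive log2 fold change, and 3 rose. The summed level of the list was nonetheless lower, at 2025 to 2466 CPM in WT against 1130 to 1949 CPM in Ocln-KO. Most of it was Aldh1a1, a retinal dehydrogenase, which was not called, at 1844 to 2276 CPM in WT against 862 to 1704 CPM in Ocln-KO. Dhrs3, which reduces retinal back to retinol, went from 48.9, 56.1 and 49.2 CPM in WT to 97.4, 87.3 and 88.7 CPM in Ocln-KO (log2 fold change 0.83, SE 0.09, edgeR adjusted p = 0.00863). Rdh10, which makes retinal from retinol, had a log2 fold change of 0.99 (edgeR adjusted p = 0.0322), and Stra6, the retinol uptake receptor, one of 1.30 (edgeR adjusted p = 0.0416). Dhrs3 and Rdh10 act in opposite directions. Among the receptors that regulate P450 genes 14 were tested and 1 rose, the retinoic acid receptor gene Rarg, with a log2 fold change of 0.67 (SE 0.17, edgeR adjusted p = 0.0483). Ahr was expressed at 45.3 to 51.7 CPM in WT against 36.0 to 61.7 CPM in Ocln-KO, and the liver and gut regulators Nr1i2 and Hnf4a had no count.

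Of the genes that release, compete for or degrade the fatty acids P450s oxidise, 10 were tested, 7 with a positive log2 fold change, and 1 fell and 3 rose. Ptgds, the lipocalin-type prostaglandin D synthase, had 712, 632 and 770 CPM in WT against 198, 372 and 233 CPM in Ocln-KO (log2 fold change -1.40, SE 0.23, edgeR adjusted p = 0.0201). Pla2g4a, the phospholipase that frees arachidonic acid, had a log2 fold change of 0.86 (edgeR adjusted p = 0.0228), and Ptgs2, the inducible cyclooxygenase, one of 0.85 (edgeR adjusted p = 0.0164). Ephx3, an epoxide hydrolase at 0.0293 to 0.241 CPM in WT, was at 0.748 to 1.21 CPM in the KO libraries (log2 fold change 2.80, SE 0.65, edgeR adjusted p = 0.0403). Ephx2, the main hydrolase of arachidonic acid epoxides, was not called, at 116 to 156 CPM in WT against 110 to 143 CPM in Ocln-KO.

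The calls among these partner genes also depended on single libraries. Over all alternatives, calls were lost from 3 times (Cyb5r1 and Dhrs3) to 7 times (Cyb5a, Stra6 and Ephx3), beside 3 times for Cyp17a1 and 5 for Cyp2u1. Each of the 12 was lost without WT replicate 1 and without WT replicate 3 (edgeR adjusted p between 0.0549 and 0.16), and all but Cyb5r1 and Dhrs3 without WT replicate 2. The calls of Rdh10, Rarg and Ephx3 were lost without Ocln-KO replicate 1, and those of Cyb5a, Srd5a1, Hsd3b7, Stra6, Rarg and Ephx3 when Ocln-KO replicate 2 was left out. Leaving out Ocln-KO replicate 3, edgeR gave adjusted p-values of 0.0596 for Cyb5a, 0.062 for Stra6 and 0.0686 for Ephx3, and the other 9 stayed called. Stra6 was also not called by limma-voom (adjusted p = 0.0544), nor Cyb5a with total counts as the scale (edgeR adjusted p = 0.0723). The losses named here are not all. Cyb5a was one of the calls lost with the replicate number as a block (edgeR adjusted p = 0.12). In that fit Cyp17a1 and Cyp2u1 were not called either (edgeR adjusted p = 0.0731 and 0.0738), and over all genes 31 fell and 10 rose. No direction turned in any of these.

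Markers of several cell types moved with genotype beside the lower P450 genes, and their part in these results was not tested. Markers of distal principal cells summed to 15529 to 19881 CPM in WT against 7453 to 12599 CPM in Ocln-KO, with 5 of 6 on the negative side and none called, and Crisp1 was lowest in Ocln-KO replicate 3 at 4439 CPM beside 9160 and 9957. Clear cell markers summed to 202 to 285 CPM in WT against 64.3 to 109 CPM in Ocln-KO, and 5 of 7 tested fell. Of 7 tested adipocyte markers all were negative and none called, from a sum of 35.6 to 46.8 CPM in WT to 28.7 to 30.7 CPM in Ocln-KO.

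Hepatocyte markers were near zero in both genotypes, at 0.428 to 0.996 CPM in WT against 0.622 to 1.35 CPM in Ocln-KO. Macrophage markers summed to 208 to 246 CPM in WT against 254 to 458 CPM in Ocln-KO, all 9 positive and none called. Smooth muscle markers were all 6 positive with 1 called, at 1182 to 1423 CPM in WT against 1601 to 2120 CPM in Ocln-KO. Sperm markers ran from 346 to 442 CPM in WT against from 113 to 492 CPM in Ocln-KO, with 0 of 10 called. Of the remaining lists, initial segment and caput principal cells had 1 of 9 called and basal cells 1 of 6, both higher. Basal cell markers summed to 270 to 282 CPM in WT against 301 to 368 CPM in Ocln-KO. All 4 tested lymphocyte markers were positive and none called, with a sum of 2.67 to 3.29 CPM in WT against 4.96 to 9.71 CPM in Ocln-KO. None was called among the neutrophil, endothelial, fibroblast and mesothelial markers, whose sums overlapped between genotypes.

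Ocln-KO replicate 3 was the lowest KO library in 11 of the 36 tested P450 genes and the highest in 16. Over all genes tested it was lowest in 37.1% and highest in 35.8%, beside 30.6% lowest among P450 genes. Of the 11, 10 had a negative log2 fold change, among them Cyp17a1, Cyp2u1, Cyp2j11, Cyp2j13, Cyp2e1, Cyp2c38 and Cyp4f40. A low replicate 3 itself lowers the KO mean, and the matching share over all genes was not counted. The 10 of 11 therefore says nothing particular to P450 genes. Without this library 6 of 39 tested P450 genes were called lower (15.4%), beside 4.63% of all genes tested in that fit. They were Cyp17a1, Cyp2u1, Cyp2j11, Cyp2j13, Cyp2e1 and Cyp4f40. The largest edgeR adjusted p among the 6 was 0.05 when rounded, that of Cyp4f40, and no P450 gene was called higher.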

How the data were processed

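Whole-epididymis RNA of 3 WT and 3 Ocln-KO libraries was measured by RNA-seq. As the methods describe, the authors extracted total RNA with Trizol, depleted rRNA, made directional libraries, aligned clean paired-end reads to GRCm38 with hisat2 (HISAT2 2.0.4 in the submitters' processing notes) and counted with HTSeq; the counting mode, strand setting, annotation and treatment of multiply aligned reads are not given in the sources used here. The deposited values are raw counts per gene and library. All columns were matched to samples by name (0 unmatched).

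Genes were kept by filterByExpr (19691 of 32046 with a count), scaled by TMM and compared with glmQLFit and glmQLFTest of edgeR 4.0.16 in R 4.3.3, with p-values adjusted by Benjamini-Hochberg over all tested genes (common dispersion 0.0577). A gene was called at an adjusted p under 0.05, and the fold threshold was over 2 or under 0.5. The SE is the log2 fold change over the square root of F. With 3 against 3 libraries an exact permutation test cannot go below p = 0.1, so none is given. Alternatives were DESeq2 1.42.0, limma-voom (limma 3.58.1), other scaling and filters, a replicate block and leaving out each library. The code was tested on simulated data.

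P450 genes named with values were those called, those with an absolute log2 fold change of at least 1 and the 10 highest by mean CPM, plus the called genes of the partner lists. Cyp2j9, Por, Ahr, Aldh1a1, Ephx2 and the untested genes given for their roles were chosen after their values were seen. The members and lists were chosen with earlier results of these data known. Symbols were used as listed; 28 read as dates or numbers (0.145% of counts) and 2 were repeated. Coordinates and promoters come from RefSeq (GRCm38.p6), exon lengths and 100-base stretches from GENCODE vM21. Same-numbered libraries did not deviate together (correlations -0.05, -0.03 and -0.00), so the numbers were not taken as pairs.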

Additional observations from a re-analysis of the deposited data

How the results depend on the processing

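The count of P450 genes called lower, 2 by edgeR, was 5 with DESeq2 (4 with the fold threshold) and 4 without a count filter (4 with the fold threshold, adding Cyp2j11 and Cyp2j13). It ran from 0 to 6 when single libraries were left out, and from 0 to 5 with the fold threshold, with 0 when WT replicate 1 or 3 was left out, 1 when WT replicate 2 or Ocln-KO replicate 2 was, 3 when Ocln-KO replicate 1 was and 6 when Ocln-KO replicate 3 was. The count called higher, 0 by edgeR, was 2 with DESeq2 (1 with the fold threshold) and from 0 to 1 when single libraries were left out, the 1 being Cyp4f17 without Ocln-KO replicate 2. With the replicate number as a block, though the libraries share only a number, 0 P450 genes were called lower and 0 higher (9 and 5 at an unadjusted p under 0.05), beside 31 and 10 over all genes. RLE factors, total counts, factors without the 20 most abundant genes and a minimum of 10 counts in every library left 2 lower and 0 higher. Total counts alone moved the calls over all genes from 992 lower and 770 higher to 674 and 1175.

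Over the 38 genes given with alternatives, 437 of 523 values kept their direction and side of the threshold, 68 lost a call, 14 gained one and 4 turned direction. Only genes called by edgeR with all libraries could lose a call, so the 437 does not measure how stable the calls were. Leaving out single libraries gave Cyp27a1 between -0.070 (without Ocln-KO replicate 3) and 0.18, with -0.051 when WT replicate 2 was left out. It gave Cyp4a12b between -0.15 (without Ocln-KO replicate 1) and 0.58, and Cyp51 between -0.27 and 0.060 (without Ocln-KO replicate 3). The log2 fold change of Cyp17a1 stayed between -2.84 and -2.25 and that of Cyp2u1 between -1.49 and -1.20, with a highest adjusted p of 0.0778 and 0.0976. The cause was not tested. Depth limits the genes near 1 CPM, such as Cyp4f39, Cyp2f2 and Cyp27b1, and the 59 untested P450 genes.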
